A study of Mus musculus with 10 samples.

Results

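The genes described here code for collagens, laminins and other proteins of the extracellular matrix, the meshwork of fibres and sheets that surrounds cells. The set holds 39 genes, listed by symbol with no rule on their measured values. Of these, 38 had a probe set that carries 1 gene symbol, and all 38 passed the filter on dim probe sets, among 13382 genes tested in all. No level of Spp1 is analysed here. Each gene was read from its brightest probe set over the 10 arrays, and its level is given as log2 intensity after quantile normalization, so a difference of 1 is a doubling. Each level belongs to 1 probe set and is compared across arrays only.

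Gene expression was measured in lungs of neonatal C57BL/6J mice on Affymetrix Mouse 430 2.0 arrays, with 1 mouse on each array. The smoke group was 6 mice that entered a cigarette smoke chamber together with their mother at the age of 1 day, were exposed for 1 h daily during 7 days and for 2 h daily during another 7 days, and were 2 weeks old when the lungs were taken. The mean particulate load of the chamber was 90 mg/m3. The control group was 4 mice of the same strain and age that breathed filtered air, and no genetic change was made in either group. The question addressed was which genes differ in the lung after smoke exposure from birth. Litter, sex and array batch are not recorded, so a p-value here reflects only how much these arrays vary, and the number of arrays limits the precision.

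The arrays carried lung markers at bright levels, among them Sftpc of alveolar type 2 cells at a mean log2 intensity of 14.38 in control and 14.42 in smoke, and Scgb1a1 of club cells at 14.46 and 14.50. Smoke arrays 1 and 2 stood apart in the ratio of the 3' to the 5' probe set of actin, a measure of how complete the labelled transcripts are. It was 31.6 and 29.4 on these arrays, 3.96 to 10.4 on the control arrays and 2.18 to 10.3 on the other smoke arrays. The same ratio for Gapdh set only smoke array 2 apart on the high side, at 9.16. It was 4.76 on smoke array 1, 4.82 to 5.89 on the control arrays and 1.40 to 5.94 on smoke arrays 3 to 6. Smoke arrays 5 and 6 had a log2 intensity of 14.09 and 14.01 for Xist, the transcript of the inactive X chromosome, like control arrays 2 and 4 at 13.96 and 13.98, while the other 6 arrays lay between 8.25 and 9.38. The mean log2 level of 7 endothelial markers was 11.18 to 11.75 on control arrays, 10.22 and 10.30 on smoke arrays 1 and 2, 11.17 and 11.51 on smoke arrays 4 and 3, and 11.88 to 11.90 on smoke arrays 5 and 6. In whole lung, fewer cells of a type and less RNA per cell cannot be told apart.

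As background, collagens are built from chains wound into a triple helix. The fibril-forming types I, III and V give tissue its tensile strength, type IV forms the network of basement membranes together with laminins, nidogens and perlecan, and type VI forms beaded filaments near cells. In the lung at this age the airspaces divide into alveoli, and fibroblasts, capillary endothelium and epithelium lay down the walls and the shared basement membrane across which gas passes. Small leucine-rich proteoglycans such as decorin bind collagen fibrils and shape their diameter. Fibronectin and matricellular proteins such as tenascin-C link the matrix to cell surface receptors.

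Promoter windows are shown for Col4a1 and Col4a2, transcribed in opposite directions out of a single stretch of DNA, whose changes are compared below. They are also shown for Col5a1 and Tnc, which with Col14a1 had the smallest p-values of the set. The sequences are those of RefSeq on GRCm38.p6, from 250 bases before to 50 bases after the first base of the gene, and 27 of the 39 genes, Spp1 among them, had 1 or more of 32 such windows. The Col4a1 window is chr8:11312777-11313076 on the minus strand, the Col4a2 window chr8:11312555-11312854 on the plus strand, the Col5a1 window chr2:27886175-27886474 on the plus strand and the Tnc window chr4:64046966-64047265 on the minus strand. In the Col4a1 and Col4a2 windows, capitals mark the 78 bases that both share, read from opposite strands. In the Col5a1 and Tnc windows, capitals mark matches to the searched motifs.
Col4a1: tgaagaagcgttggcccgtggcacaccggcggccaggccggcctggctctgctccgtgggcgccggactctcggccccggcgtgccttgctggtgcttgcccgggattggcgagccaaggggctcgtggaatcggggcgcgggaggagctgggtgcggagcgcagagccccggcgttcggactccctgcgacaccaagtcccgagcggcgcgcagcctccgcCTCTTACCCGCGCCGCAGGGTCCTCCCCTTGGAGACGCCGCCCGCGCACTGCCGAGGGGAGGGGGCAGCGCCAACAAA
Col4a2: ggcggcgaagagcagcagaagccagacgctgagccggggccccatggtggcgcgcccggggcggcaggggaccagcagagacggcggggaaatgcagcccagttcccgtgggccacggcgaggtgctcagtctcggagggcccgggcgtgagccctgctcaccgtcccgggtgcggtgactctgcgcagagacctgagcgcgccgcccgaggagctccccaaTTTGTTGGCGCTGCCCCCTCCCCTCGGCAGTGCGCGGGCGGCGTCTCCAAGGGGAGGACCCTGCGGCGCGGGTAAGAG
Col5a1: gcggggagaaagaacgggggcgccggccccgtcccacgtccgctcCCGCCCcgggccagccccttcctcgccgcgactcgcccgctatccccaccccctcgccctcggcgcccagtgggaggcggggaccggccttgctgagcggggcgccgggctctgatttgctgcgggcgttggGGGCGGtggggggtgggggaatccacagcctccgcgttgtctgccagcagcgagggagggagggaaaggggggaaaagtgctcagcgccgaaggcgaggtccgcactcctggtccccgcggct
Tnc: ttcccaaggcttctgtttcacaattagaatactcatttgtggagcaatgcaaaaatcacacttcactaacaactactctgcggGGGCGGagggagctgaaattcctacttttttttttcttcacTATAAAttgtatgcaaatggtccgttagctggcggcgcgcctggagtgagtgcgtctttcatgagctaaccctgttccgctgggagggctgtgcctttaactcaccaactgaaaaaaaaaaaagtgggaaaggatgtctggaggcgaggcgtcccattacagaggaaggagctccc

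The first bases of Col4a1 and Col4a2 lie 21 bases apart, so the core of either promoter is also the core of the other. Col4a1 starts at base 11312826 and runs to lower positions, Col4a2 starts at 11312805 and runs to higher ones. Their first stretches therefore overlap. Windows were searched on both strands for GGGCGG , for CCAAT, for TATAAA and for TGACTCA, and no matches overlap in the windows printed. In the Col5a1 window GGGCGG begins at base 178, counted from 1 at the 5' end, and on the other strand at base 46. In the Tnc window, the outermost of those listed for the gene, GGGCGG begins at base 84 and TATAAA at base 125. GGGCGG was found in 19 of the 32 windows of the set (59.4%) and in 35.7% of all 32851 windows of the same length, where the median GC content was 60% and 52.7%. TATAAA was found in 18.8% of the set's windows against 13.6% of all, CCAAT in 34.4% against 37.4%, and TGACTCA in 3.1% against 5.2%. These matches are letters in the windows and do not mark bound sites, and several windows of the set belong to the same gene.

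None of the 38 matrix genes passed the test between smoke and control (limma, Benjamini-Hochberg adjusted p under 0.05). Over all genes tested, 0.702% (94 genes) passed as lower and 0.0224% (3 genes) as higher. The smallest adjusted p in the set was 0.361, for Col14a1. At an unadjusted p under 0.05, 3 of 38 were higher, Col14a1, Col5a1 and Tnc (7.89%, against 5.75% of all genes), and 0 were lower (against 4.47%). Every smoke array lay above every control array for 2 of 38, Col14a1 and Tnc (5.26%, against 1.97% of all genes), and below for 0 (against 2.11%). By the fold and pairwise rule in the series' design text, 0 of 38 qualified, where 1.35% of all genes did as higher and 2.22% as lower.

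The signs of the changes were evenly divided. The log2 change from control to smoke was above 0 for 19 genes and below 0 for 19, with a median of 0.0078, while over all genes 43.1% were below 0 and the median was 0.06. Without quantile normalization 15 of the 38 were below 0, and with arrays centred on their median 22, where 39.9% and 49.3% of all genes were. The changes ran from -0.81 for Dcn to 0.91 for Col5a1. Past 1.5-fold in size were Col5a1, Tnc, Col15a1 and Col1a1 on the higher side (10.5%, against 6.37% of all genes) and Dcn on the lower side (2.63%, against 6.45%). The smoke arrays spread more widely than the controls for 29 of 38 genes (76.3%, against 81.4% of all genes), with a median SD of 0.50 in smoke and 0.25 in control.

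**Figure D1:**
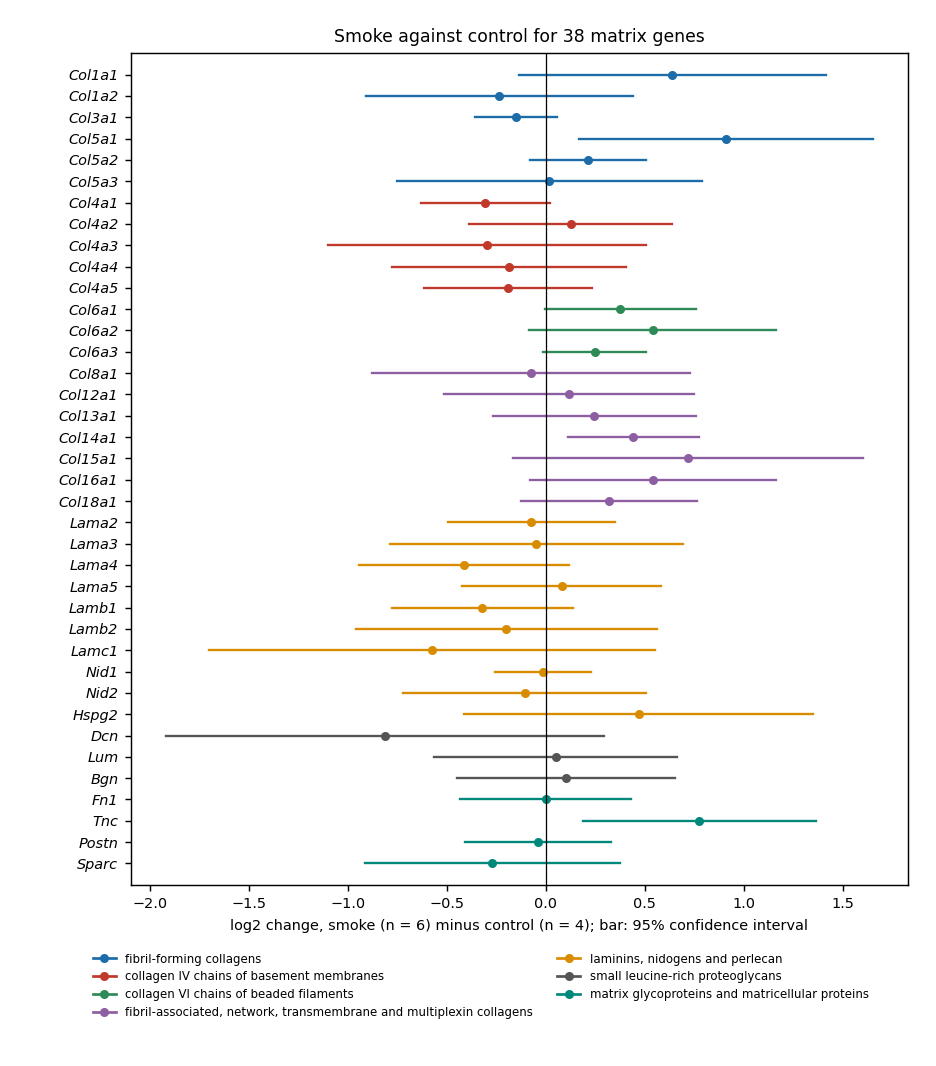
Log2 change from control (n = 4) to smoke (n = 6) for the 38 matrix genes, grouped by role, with points for the estimate and bars for the 95% confidence interval from limma. The intervals of Col5a1, Col14a1 and Tnc lie above 0, and no gene passed after adjustment over all tested probe sets.

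Among the fibril-forming collagens, Col5a1 and Col1a1 had the largest changes. Of 6 genes, 4 had a change above 0 and 2 below, with a median of 0.12. Col5a1, the chain that nucleates type I fibrils and limits their diameter, had log2 intensities of 10.65, 10.32, 9.57 and 10.36 on control arrays 1 to 4. The 6 smoke arrays ran from 10.49 through a median of 11.00 to 12.21, and 4 of them lay above every control. Its log2 change was 0.91 ± 0.34 (SE; limma, unadjusted p = 0.0202, adjusted p = 0.399), a 1.88-fold difference. The highest values were those of smoke arrays 1 and 2, at 12.21 and 11.58, and without these arrays the change was 0.53 ± 0.25.

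Col1a1, the major chain of type I collagen, had control levels of 11.85, 12.10, 11.05 and 11.34 on the log2 scale. The smoke arrays ran from 11.28 through a median of 12.33 to 13.10, with 4 of 6 above every control and smoke arrays 5 and 6, at 11.49 and 11.28, inside the control range. The log2 change was 0.64 ± 0.36 (limma, adjusted p = 0.564). Col1a2, the partner chain that joins 2 Col1a1 chains in the type I helix, had a log2 change of -0.23 ± 0.31 from its brightest probe set and of 0.26 and 0.34 from its other tested probe sets. Col3a1, of type III collagen, was at -0.15 ± 0.10, and at 0.26 by its second probe set. Of the other type V chains, Col5a2 was at 0.21 ± 0.13 and Col5a3 at 0.02 ± 0.35, with 1 smoke array above and 3 below every control for Col5a3.

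Collagen IV, the sheet-forming collagen of basement membranes, had 4 of 5 chains on the lower side and a median log2 change of -0.19. Col4a1 read 14.25, 14.07, 14.01 and 14.19 on the control arrays. On the smoke arrays it ran from 13.44 through a median of 13.94 to 14.10, and 4 of 6 lay below every control. The log2 change was -0.31 ± 0.15 (limma, unadjusted p = 0.0630, adjusted p = 0.519). Col4a2, its head-to-head partner and the third strand of the same helix, read 12.79, 12.31, 12.06 and 12.81 on control arrays and 12.20, 12.45 and 13.15 as lowest, median and highest on smoke arrays, with no smoke array below the control range. Its log2 change was 0.13 ± 0.24. Smoke arrays 1 and 2 were the lowest of all arrays for Col4a1, at 13.44 and 13.47 by its brightest probe set, and stood within the control range for Col4a2, at 12.31 and 12.50. The second Col4a1 probe set, 1426348_at, read otherwise: smoke array 1 was at 11.18, above the controls at 10.06 to 10.71, smoke array 2 was within that range at 10.25, and the change was 0.29 ± 0.25.

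The second head-to-head pair, Col4a3 and Col4a4, codes for chains of the basement membrane between alveolar epithelium and capillary. Col4a3 read 11.75, 10.90, 11.61 and 11.48 in control and ran from 10.25 through 10.85 to 12.13 in smoke. Col4a4 read 12.96, 12.62, 12.76 and 12.99 in control and ran from 11.70 through 12.70 to 13.27 in smoke. For both genes smoke arrays 1 and 2 were the lowest of the 10 and smoke arrays 5 and 6 the highest. The changes were -0.30 ± 0.37 for Col4a3 and -0.19 ± 0.27 for Col4a4 (limma, adjusted p = 0.805 and 0.836), and without smoke arrays 1 and 2 they were 0.04 ± 0.33 and 0.14 ± 0.16. The median deviation of the 5 chains from the control mean was -0.75 and -0.56 on smoke arrays 1 and 2, and 0.44 and 0.39 on smoke arrays 5 and 6. The endothelial marker mean given above was also lowest on smoke arrays 1 and 2 and highest on 5 and 6. All 7 of its markers were bright enough to be tested, with 1 change above 0, 6 below and 0 passed, and their part in the collagen IV values was not tested.

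All 3 measured chains of collagen VI, whose filaments anchor basement membranes to fibrillar collagen, had changes above 0. Col6a1 read 11.58, 11.60, 10.90 and 11.31 on control arrays and 11.52, 11.66 and 12.03 as the lowest, median and highest of the smoke arrays. With 4 of 6 smoke arrays above every control, its log2 change was 0.38 ± 0.18 (limma, unadjusted p = 0.0528, adjusted p = 0.504), and 0.23 without control array 3. Col6a2 read 13.08, 13.16, 12.31 and 12.45 on control arrays, 13.93, 13.77, 13.42 and 13.38 on smoke arrays 1 to 4, all above control, and 12.58 and 12.65 on smoke arrays 5 and 6, within the control range. Its change was 0.54 ± 0.29, and that of Col6a3 was 0.25 ± 0.12, with 5 of 6 smoke arrays above every control. The 3 changes, in the same order, were 0.46, 0.26 and 0.31 with smoke arrays 1 and 2 left out, and 0.34, 0.87 and 0.25 with smoke arrays 5 and 6 left out.

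**Figure D2:**
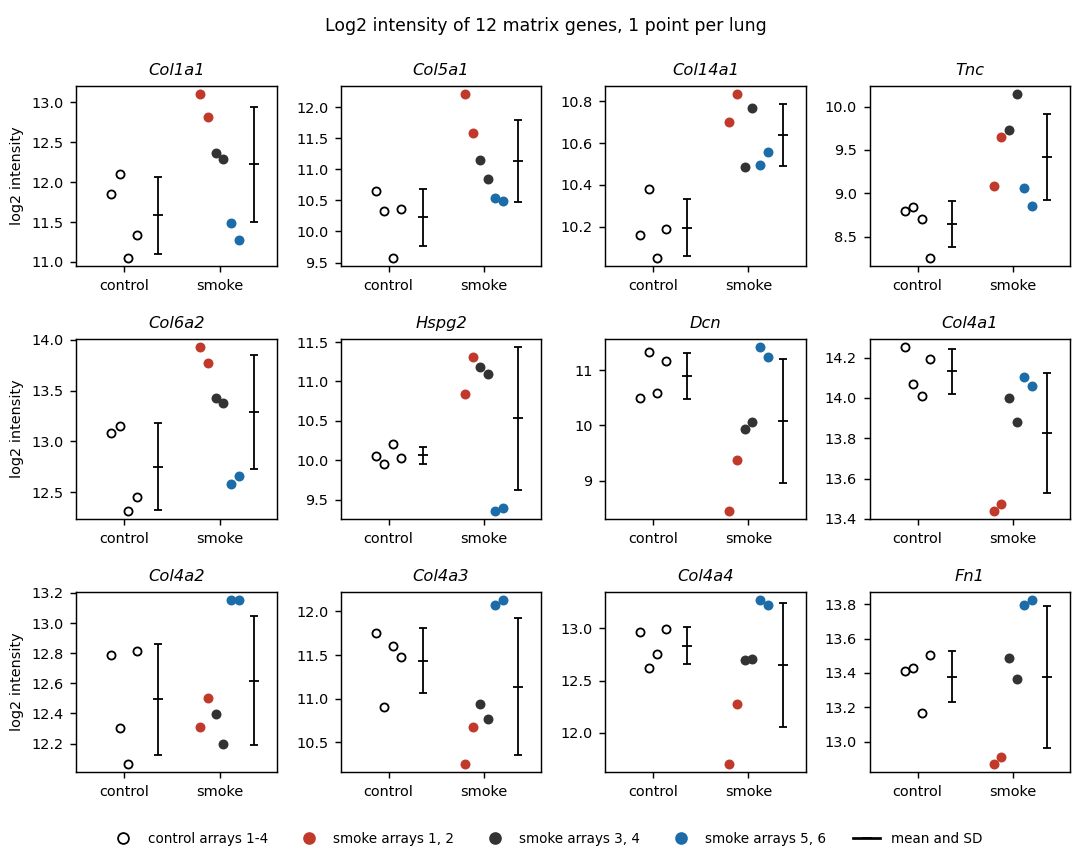
Log2 intensity of 12 matrix genes on each array, with open circles for control (n = 4), filled circles for smoke (n = 6) and bars for mean and SD. For Col14a1 and Tnc every smoke lung lies above every control lung, while for Dcn and Col4a3 smoke arrays 5 and 6 (blue) lie at the opposite end from smoke arrays 1 and 2 (red).

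Among the other collagens, 6 of 7 had a change above 0, with a median of 0.32. Col14a1, a fibril-associated collagen that coats type I fibrils, read 10.16, 10.38, 10.05 and 10.19 on control arrays. On smoke arrays it ran from 10.49 through a median of 10.63 to 10.83, so that no smoke lung overlapped the control range. The log2 change was 0.44 ± 0.15, a 1.36-fold difference (limma, unadjusted p = 0.0126, adjusted p = 0.361). It was 0.38 ± 0.15 with smoke arrays 1 and 2 left out and 0.50 ± 0.16 with smoke arrays 5 and 6 left out. Col15a1 and Col18a1, multiplexins of basement membrane zones, had changes of 0.72 ± 0.41 and 0.32 ± 0.20; that of Col15a1 was 0.34 without control array 3. Col16a1 was at 0.54 ± 0.29, Col13a1, a transmembrane collagen, at 0.25 ± 0.24, Col12a1 at 0.12 ± 0.29 and Col8a1, of vascular network collagen, at -0.08 ± 0.37.

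The laminins, nidogens and perlecan, which assemble with collagen IV into basement membranes, had 8 of 10 changes below 0, with a median of -0.09. Lama4, the alpha chain of endothelial laminins, read 11.60, 11.55, 11.30 and 11.38 on control arrays and 10.32, 11.20 and 11.59 as the lowest, median and highest smoke array. Smoke arrays 1, 2 and 4 lay below every control, and the log2 change was -0.41 ± 0.24 (limma, adjusted p = 0.585), or -0.27 without smoke array 1. Lamc1, the gamma chain that most laminins contain, had the lowest change of the family, -0.58 ± 0.52, and the widest spread of the set in smoke. It was at 7.43 and 8.32 on smoke arrays 1 and 2 and between 9.37 and 10.34 on the other 4, against 9.82 to 10 in control, and without arrays 1 and 2 the change was 0.13 ± 0.22. The other laminin chains were at -0.07 for Lama2, -0.05 for Lama3, 0.08 for Lama5, -0.32 for Lamb1 and -0.20 for Lamb2. By its other tested probe set, 1424113_at, Lamb1 was at -0.53 ± 0.27. On that probe set 5 of 6 smoke arrays lay below every control, against 2 of 6 on the brightest. Nid1 and Nid2, which bridge laminin and collagen IV, were at -0.02 and -0.11 by their brightest probe sets, and dimmer Nid1 probe sets, given below, read lower in smoke.

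Hspg2 codes for perlecan, the large heparan sulfate proteoglycan of basement membranes, and was picked out after its values were seen. The 4 control arrays agreed closely, at 10.05, 9.95, 10.21 and 10.03. Smoke arrays 1 to 4 read 10.84, 11.31, 11.19 and 11.09, all above control, and smoke arrays 5 and 6 read 9.36 and 9.40, both below. The log2 change over the 6 arrays was 0.47 ± 0.40 (limma, adjusted p = 0.718). These values are those of 1418670_s_at. On the other tested probe set, 1418669_at, with controls at 9.42 to 9.72, smoke arrays 1 and 2 read 10.96 and 9.79, above control, smoke array 4 was within the control range at 9.62, and smoke arrays 3, 5 and 6 were below it at 9.24, 9.06 and 9.37. Its change was 0.05 ± 0.32.

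Of the small leucine-rich proteoglycans, Dcn (decorin) had the lowest change of the whole set. Its control levels were 10.49, 11.33, 10.58 and 11.17. Smoke arrays 1 to 4 read 8.45, 9.38, 9.93 and 10.06, each below every control. Smoke array 5 read 11.42, above every control, and smoke array 6 read 11.23, within the control range. The log2 change was -0.81 ± 0.51 (limma, adjusted p = 0.603), -0.49 without smoke array 1 and -0.23 ± 0.35 without smoke arrays 1 and 2. By the other tested probe set, 1441506_at, the change was -0.87 ± 0.52, with a different order of the arrays. On it smoke arrays 1, 3 and 6 were within the control range of 6.86 to 7.54. Smoke arrays 2, 4 and 5 were below it, at 6.13, 4.31 and 6.75. Lum (lumican) was at 0.05 ± 0.28 and Bgn (biglycan) at 0.10 ± 0.25.

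Among the matrix glycoproteins, 1 of 4 had a change above 0 and the median was -0.02. That gene was Tnc, tenascin-C, a matricellular protein of growing and injured tissue, which read 8.80, 8.84, 8.70 and 8.25 on control arrays. The smoke arrays ran from 8.86 through a median of 9.37 to 10.15, all 6 above every control, and the smoke array nearest to the control range was array 6. The log2 change was 0.78 ± 0.27, a 1.71-fold difference (limma, unadjusted p = 0.0140, adjusted p = 0.371), and 0.80 ± 0.28 without smoke arrays 1 and 2. A dim Tnc probe set, 1456344_at, was under the filter and not tested. It read 8.61, 8.37, 8.53 and 7.59 on smoke arrays 1 to 4, above its controls at 3.98 to 5.97. Smoke arrays 5 and 6 were inside that control range, at 3.98, the floor, and 5.69. Fn1, fibronectin, read 13.41, 13.43, 13.16 and 13.50 in control and 12.87, 13.43 and 13.83 as the lowest, median and highest smoke array. Its change was -0.0011 ± 0.20, the smallest in size of the set: smoke arrays 1 and 2 lay below all 8 other arrays and smoke arrays 5 and 6 above. The other tested Fn1 probe set, 1437218_at, was at -0.43 ± 0.58. It was also low on smoke arrays 1 and 2, at 7.94 and 7.32, against 9.25 to 10.09 in control. On it smoke arrays 3 and 4 lay above every control, at 10.42 and 10.28, and smoke arrays 5 and 6 within the control range. Postn (periostin) was at -0.04 ± 0.17 and Sparc (osteonectin), a collagen-binding protein, at -0.27 ± 0.30.

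The smoke lungs differed among themselves in a pattern that several families shared. Smoke arrays 1 and 2 both lay below the 8 other arrays for 12 of 38 matrix genes (31.6%, against 10.6% of all genes), among them 4 of the 5 collagen IV chains, Col1a2, Dcn, Fn1, Lama3, Lama5, Lamc1, Postn and Sparc. They lay above the 8 others for 4 (10.5%, against 20.8%), Col1a1, Col5a1, Col6a2 and Col18a1. Smoke arrays 5 and 6 both lay above the 8 others for 11 genes (28.9%, against 12.7%) and below for Hspg2 alone (2.63%, against 11.3%). The median deviation of the 38 genes from the control mean was -0.27 and -0.04 on smoke arrays 1 and 2, 0.11 and 0.0024 on 3 and 4, and 0.27 on both 5 and 6; the 4 control arrays ran from -0.14 to 0.14. The actin ratio was highest on smoke arrays 1 and 2 and lowest on smoke arrays 5 and 6, and its part in these values was not tested.

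**Figure D3:**
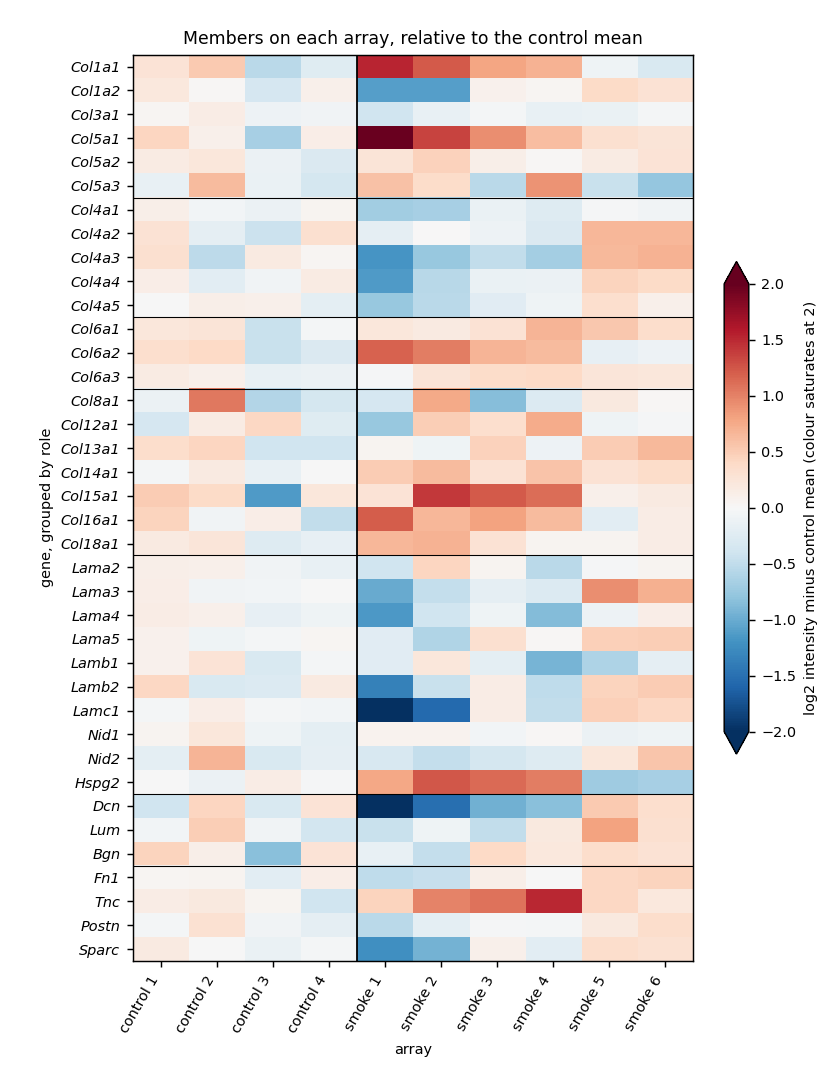
Log2 intensity of each of the 38 genes on each of the 10 arrays, as the difference from that gene's control mean (red higher, blue lower, colour saturating at 2), with lines between the role groups. The collagen IV and laminin genes are mostly blue on smoke arrays 1 and 2 and red on smoke arrays 5 and 6, while Col1a1, Col5a1 and Col6a2 are red on smoke arrays 1 to 4.

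The calls for several genes depended on which smoke lungs were included. Without smoke arrays 1 and 2, 0 of 38 genes passed (limma; all genes 0.0747% higher and 0.859% lower), while 5 had an unadjusted p under 0.05 (13.2%, against 11% of all genes). Then 9 instead of 19 genes had a change below 0 (23.7%, against 46.2% of all genes), and the median change was 0.17, against 0.03 over all genes. In that comparison 11 genes turned from below to above 0, Col1a2, Col4a3, Col4a4, Col4a5, Lama3, Lamb2, Lamc1, Nid2, Fn1, Postn and Sparc, and Col5a3 turned from above to below. With the arrays numbered 1 to 4 in both groups, which leaves out smoke arrays 5 and 6, 4 of 38 passed (10.5%), where 3.12% of all genes passed as higher and 2.42% as lower. Hspg2 rose by 1.05 ± 0.16 (limma, adjusted p = 0.00712), Col1a1 by 1.06 ± 0.26 (adjusted p = 0.0467) and Col6a2 by 0.87 ± 0.21 (adjusted p = 0.0444). Dcn fell by 1.44 ± 0.35 (adjusted p = 0.0489). The smoke arrays left out, 5 and 6, lay within the control range for Col1a1 and Col6a2 and below it for Hspg2. For Dcn smoke array 5 lay above that range and smoke array 6 within it. Leaving them out makes these changes larger in size, so passing here is not separate evidence of a difference. The other tested probe sets of these genes did not pass in the same comparison: Hspg2 was at 0.28 ± 0.33 (adjusted p = 0.623), Col6a2 at 0.84 ± 0.26 (adjusted p = 0.0960) and Dcn at -1.10 ± 0.59 (adjusted p = 0.275), and Col1a1 had no other. A dimmer Nid1 probe set, 1441519_at, did pass there, at -1.52 ± 0.34 (limma, adjusted p = 0.0361), while the brightest Nid1 probe set was at 0.03 ± 0.11. A dim Col1a1 probe set, 1423669_at, was under the filter and not tested, and it had a different pattern. It read 4.40, 3.98, 7.57 and 3.98 on smoke arrays 1 to 4, where 3.98 is the floor. On smoke arrays 5 and 6 it read 8.16 and 8.08, and on control arrays 3.98 to 7.64. Smoke arrays 1 to 4 all had low Xist levels, while the control arrays held 2 with high and 2 with low levels. In both of these comparisons 21 genes kept the direction they had over all 10 arrays, 14 above 0 and 7 below, with Col5a1, Col14a1, Tnc and the 3 collagen VI chains among the former and Col4a1, Dcn and Lama4 among the latter.

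Probe sets of the same gene gave a further view of these arrays. The 38 members had 62 tested probe sets, and 0 of them passed (limma; 149 of 27022 passed over the whole array). An unadjusted p under 0.05 was found for 6 higher (9.68%, against 4.53% over the array) and 2 lower ones (3.23%, against 5.50%). For 20 members 2 or more probe sets were tested. The sign of the change differed between probe sets for 6 of the 20 genes (30%, against 51.7% of all genes with several), Col1a2, Col3a1, Col4a1, Col4a3, Bgn and Sparc. With each probe set taken relative to its own control mean, the median span between the highest and the lowest probe set of a gene was 0.18 to 0.23 on the control arrays. It was 0.94 and 0.85 on smoke arrays 1 and 2, and 0.30 to 0.63 on the other 4. The control arrays themselves set the control mean, so their spans are smaller in part by construction. The span passed 1 for 10 and 8 of the 20 genes on smoke arrays 1 and 2, for up to 5 on the other smoke arrays and for up to 1 on each control array.

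Some of these gaps touched the values above, and the genes named here were picked after their values were seen. For Col1a2, probe set 1450857_a_at read 12.43 and 12.42 on smoke arrays 1 and 2, against 13.19 to 13.74 in control, while 1423110_at read 12.91 and 12.88 on the same arrays, inside its control range of 12.46 to 13.15, and had a change of 0.26 ± 0.16. For Bgn, 1437889_x_at read 10.42 and 10.92 there, against 12.13 to 13.28 in control, while the other Bgn probe sets stayed within their control ranges. The low readings of Col1a2 and Bgn on smoke arrays 1 and 2 thus belonged to 1 of 3 tested probe sets each. For Sparc both bright probe sets were low on these arrays, to different depths: on smoke array 2 1416589_at read 10.75, against 13.32 to 14.08 in control, and 1448392_at read 12.83, against 13.65 to 13.96. Col4a4 differed on other arrays: 1425772_at was lowest on smoke arrays 5 and 6, at 8.89 and 8.92, where the 2 other probe sets of the gene were highest.

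**Figure D4:**
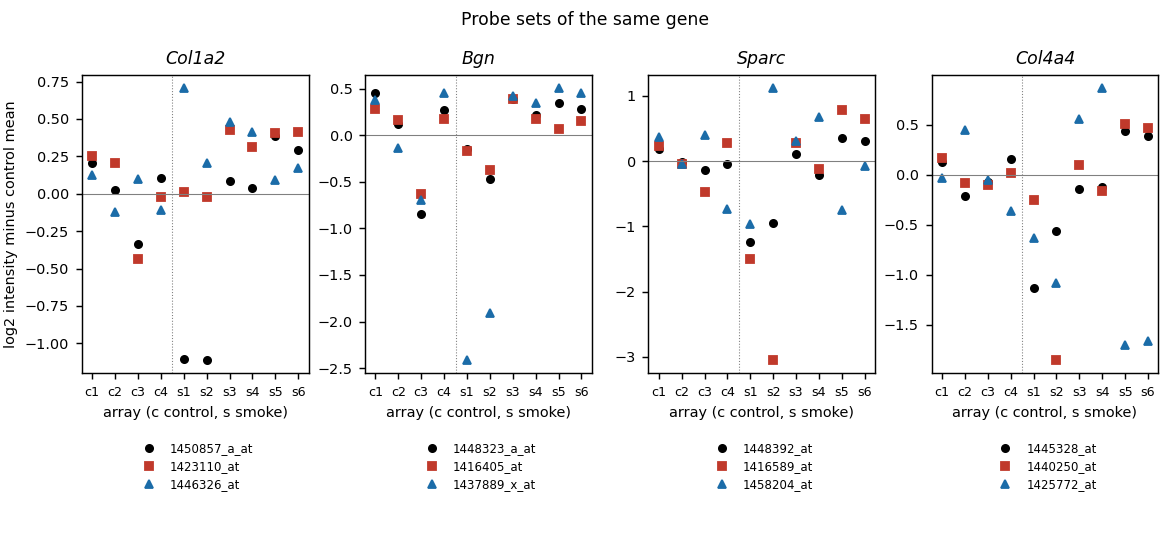
Log2 intensity of each tested probe set of Col1a2, Bgn, Sparc and Col4a4 on each array, as the difference from that probe set's control mean. For Col1a2 and Bgn the probe sets lie further apart on smoke arrays s1 and s2 than on any control array (c1 to c4), for Sparc they lie furthest apart on s2, and for Col4a4 on s5 and s6.

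For some collagens on the higher side, a second probe set can be set beside the brightest. For Col5a1, 1434479_at had a change of 0.49 ± 0.17 with 6 of 6 smoke arrays above every control (limma, adjusted p = 0.392), and for Col18a1, 1418237_s_at had 0.68 ± 0.22, also with 6 of 6 above (adjusted p = 0.345). For Col14a1, 1428455_at had a change of 0.37 ± 0.34 (adjusted p = 0.737), with smoke arrays 1 and 2 above every control and the other 4 inside the control range, unlike the brightest probe set. Col5a2 was at 0.53 ± 0.20 by 1450625_at (adjusted p = 0.408) and Col6a2 at 0.50 ± 0.32 by 1426947_x_at (adjusted p = 0.620). Nid1 gave the widest disagreement: its brightest probe set was at -0.02, and the dimmer 1441519_at was at -1.34 ± 0.30 with 6 of 6 smoke arrays below every control (limma, unadjusted p = 0.000902, adjusted p = 0.107). The dimmest Nid1 probe set, 1448469_at, was under the filter and not tested. Its mean was 7.81 in control and 5.55 in smoke, also with 6 of 6 smoke arrays below every control, and smoke array 2 was at the floor of 3.98. For Col8a1 the brightest probe set was at -0.08 and 1418440_at at -1.37 ± 0.55, with 5 of 6 smoke arrays below every control. On smoke array 2 the latter was at the floor of 3.98, which adds to its change. The other smoke arrays read 6.135 to 7.32, against 7.24 to 7.98 in control.

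The machinery that makes and crosslinks collagen had no called gene either. Of 30 listed enzymes and chaperones, 24 were tested and 0 passed. An unadjusted p under 0.05 was found for Loxl1 alone, as higher (limma, against 5.75% of all genes higher and 4.47% lower). There were 10 changes above 0 and 14 below, with a median of -0.03. Loxl1, a lysyl oxidase that crosslinks elastin, had the smallest p, with a change of 0.53 ± 0.19 and 5 of 6 smoke arrays above every control (limma, adjusted p = 0.396). Plod2, which hydroxylates lysines used in crosslinks, had all 6 smoke arrays, from 6.00 through a median of 10.22 to 10.43, below the controls at 10.74 to 11.04, with a change of -1.73 ± 0.81 (adjusted p = 0.504). Bmp1, the procollagen C-proteinase, was at 0.44 ± 0.21 and P4ha1, a prolyl hydroxylase subunit, at -0.66 ± 0.38.

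Of 26 receptors that bind collagens, laminins or fibronectin, 24 were tested and 0 passed. An unadjusted p under 0.05 was found for 3, all of them higher (limma, against 5.75% of all genes higher and 4.47% lower). There were 14 changes above 0 and 10 below, with a median of 0.09. Itga7, a laminin receptor subunit, ran from 7.60 through 7.93 to 8.09 in smoke, all 6 arrays above the controls at 7.10 to 7.54, with a change of 0.64 ± 0.20 (limma, unadjusted p = 0.00814, adjusted p = 0.308). Sdc1, a cell surface heparan sulfate proteoglycan, also had 6 of 6 smoke arrays above every control, with a change of 0.35 ± 0.12 (adjusted p = 0.370). Itga5, a subunit of the fibronectin receptor, was at 1.00 ± 0.34, and Itgb6, of an epithelial integrin, at -1.25 ± 0.59.

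Of 57 further collagens, laminins and matrix proteins, 39 were tested and 0 passed. An unadjusted p under 0.05 was found for 3 higher and 4 lower genes (limma, against 5.75% of all genes higher and 4.47% lower). There were 19 changes above 0 and 20 below, with a median of -0.01. Ogn (osteoglycin), a small leucine-rich proteoglycan like decorin, ran from 13.25 through 13.45 to 13.76 in smoke, all 6 arrays below the controls at 13.86 to 14.07, with a change of -0.42 ± 0.12 (limma, unadjusted p = 0.00486, adjusted p = 0.251). Matn2 (matrilin-2) had a change of -0.97 ± 0.27 with 4 of 6 smoke arrays below every control (adjusted p = 0.227). Fmod (fibromodulin), another collagen-binding proteoglycan, was at 0.89 ± 0.33, and Agrn (agrin), a basement membrane proteoglycan, at -0.56 ± 0.21. With the arrays numbered 1 to 4 alone, Fmod rose by 1.28 (limma, adjusted p = 0.0160) and Ogn fell by 0.54 (adjusted p = 0.00910). In that comparison 5 more of this list passed, Thbs2 and Tgfbi as higher and Omd, Smoc2 and Sparcl1 as lower. Over all genes 3.12% passed there as higher and 2.42% as lower.

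Marker lists of the cell types that make or border on matrix had the levels given here, and 0 genes passed in any of them. At most 2 in a list had an unadjusted p under 0.05 (limma, against 10.2% of all genes). The list with 2 was that of macrophages, where Chil3 and Mrc1 of 6 tested markers were lower. Of its changes, 1 was above 0 and 5 were below. The mean log2 level of 4 tested fibroblast markers was 10.40 to 10.83 on control arrays and 10.61 to 11.10 on smoke arrays, and that of 6 smooth muscle markers 8.24 to 8.98 and 8.09 to 9.64. Mesothelial markers, of the lining of the lung, averaged 9.74 to 10 in control and 8.55 to 9.82 in smoke, and heart muscle markers 8.17 to 9.38 and 7.31 to 9.69. Acta2, the smooth muscle and myofibroblast actin, had 6 of 6 smoke arrays above every control with a change of 0.53 ± 0.20 (limma, adjusted p = 0.397). The other smooth muscle markers did not share this: Myh11 was at -0.58, Des at -0.04, Tagln at 0.02, Cnn1 at 0.38 and Actg2 at 0.44, each with overlapping groups. Of the cartilage markers, Col2a1, Matn1 and Cnmd were under the filter on dim probe sets, while Acan, Col9a1 and Chad were tested. The tested ones averaged 6.90 to 8.02 in control and 7.18 to 8.17 in smoke. Cycling markers averaged 8.19 to 8.63 in control and 8.54 to 9.57 in smoke, and the 4 tested ones all had a change above 0, with a median of 0.66. How far the share of each cell type enters the values of the matrix genes was not tested.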

How the data were processed

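Lung RNA of 4 control and 6 smoke-exposed mice was labelled as cRNA and hybridised to 1 array each, per the labels' protocols. The authors deposited linear intensity values per probe set; which program summarised the probes is not given in the sources used here. Values were taken to log2, quantile normalized and floored at the 10th percentile (an intensity of 15.8). Control probe sets were left out, and the brightest 60% of the others by mean log2 value, 27022 probe sets, entered the test. Symbols came from the platform annotation, and 34945 probe sets carried 1 symbol. Groups were compared with limma 3.58.1 in R 4.3.3 (lmFit, eBayes with trend, two-sided), p-values being adjusted by Benjamini-Hochberg over these probe sets; the fit was tested on simulated data. The members, lists and alternatives were chosen with earlier results of these data known. Levels by array (each control array, and the lowest, median and highest or each of the smoke arrays) are given for the member with the smallest p in each role, Fn1, Col1a1, Col4a3 and Tnc, and the partners Col4a2 and Col4a4. Col6a2, Hspg2 and Lamc1 were added after their values were seen. From each related list up to 4 genes with the smallest p are named. The design text's rule names 9 pairwise comparisons and was run on the 24 pairs of a control with a smoke array. Alternatives changed the normalization, the filter, the floor, the variance model, array weights, covariates, the arrays included, the replicate number as a block and the probe set read. Plots used matplotlib 3.10.9 in Python 3.11.15.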

Additional observations from a re-analysis of the deposited data

Results flagged for a closer look

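For each of the 38 genes the highest or lowest array of either group was compared with the nearest other array of that group, 76 groups in all, and 3 stood apart from their group, where chance alone gives about 1 in 20. Col3a1 was at 14.03 (log2 intensity) on smoke array 1, below the next smoke array at 14.27. Lamc1 was at 10 on control array 2, above the next control array at 9.83; the other 3 control arrays lay within 9.82 to 9.83. Nid2 was at 8.49 on control array 2, above the next control array at 7.64, and the change of Nid2 without this array was 0.12 in place of -0.11.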

How the results depend on the processing

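Over 947 values of a member's change under an alternative, 855 kept the direction and the side of the threshold, 9 passed it where the value over all arrays had not, 0 lost it and 83 turned in direction; the cause of these turns was not tested. The count of members past the threshold stayed at 0 under each change of normalization, filter, floor, variance model, array weights, covariate, probe set and single array left out. The count of members with a change below 0 was 9 both when arrays were weighted and when smoke arrays 1 and 2 were left out, against 19. With the actin ratio as a covariate, 5 of the 39 other matrix genes passed (Fmod, Thbs2 and Tgfbi higher, Ogn and Matn2 lower), where 2.77% of all genes did, against 0.725% without it. With the arrays numbered 1 to 4, 4 members passed, with 2 genes of collagen processing (Pcolce2 and Lox, lower), 1 receptor (Itgb8, higher) and 7 other matrix genes, where 5.54% of all genes did.

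The replicate number as a block gave 5 members past the threshold, Col1a1 at 1.06, Col5a1 at 1.22, Col6a2 at 0.87, Hspg2 at 1.05 and Dcn at -1.44, with 2 genes of collagen processing, 2 receptors and 7 other matrix genes; over all genes 421 were higher and 341 lower (5.69%). Smoke arrays 5 and 6 have numbers of their own and drop out of this comparison. The deviations of same-numbered arrays from their group means correlated at -0.07, 0.17, -0.06 and -0.05, so the numbers are not taken to pair the mice. Under the block and with the arrays numbered 1 to 4 alone, the members that turned were Col4a2 at -0.14, Lama5 at -0.12, Nid1 at 0.027, Lum at -0.21 and Bgn at -0.0021.

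Members that turned without smoke arrays 1 and 2 were Col1a2 at 0.20, Col5a3 at -0.21, Col4a3 at 0.042, Col4a4 at 0.14, Col4a5 at 0.035, Lama3 at 0.30, Lamb2 at 0.15, Lamc1 at 0.13, Nid2 at 0.040, Fn1 at 0.24, Postn at 0.12 and Sparc at 0.14. Those that turned with array weights were Col1a2 at 0.11, Col5a3 at -0.30, Col4a3 at 0.10, Col4a4 at 0.10, Col4a5 at 0.024, Lama3 at 0.34, Lamb2 at 0.16, Lamc1 at 0.075, Nid2 at 0.13, Fn1 at 0.23, Postn at 0.15 and Sparc at 0.10. Without quantile normalization, the turned members were Col3a1 at 0.061, Col5a3 at -0.0029, Col8a1 at 0.015, Nid1 at 0.022, Nid2 at 0.023 and Fn1 at 0.0017, and with arrays centred on their median Col5a3 at -0.083, Col4a2 at -0.041 and Bgn at -0.014. With the actin ratio as a covariate they were Col5a3 at -0.055, Lama3 at 0.042 and Fn1 at 0.054, with the Xist level as a covariate Col5a3 at -0.024, Lama3 at 0.026 and Fn1 at 0.048, and with the median over a gene's probe sets Col1a2 at 0.26 and Col3a1 at 0.053. Leaving out 1 array at a time gave lowest and highest changes of -0.16 and 0.23 for Col5a3, -0.017 and 0.23 for Col4a2, -0.31 and 0.00034 for Col4a4, -0.27 and 0.28 for Col8a1, -0.0083 and 0.29 for Col12a1, -0.17 and 0.020 for Lama2, -0.24 and 0.14 for Lama3, -0.0031 and 0.21 for Lama5, -0.34 and 0.029 for Lamb2, -0.078 and 0.058 for Nid1, -0.24 and 0.12 for Nid2, -0.10 and 0.21 for Lum, -0.18 and 0.25 for Bgn, -0.091 and 0.10 for Fn1 and -0.12 and 0.061 for Postn. Background levels of the probe sets are not stated, so no detection limit is given for the dim ones.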
